A study of Mus musculus with 12 samples.

Results

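Collagen genes were followed in bulk RNA sequencing of early mouse forelimb buds, as every gene whose Ensembl identifier carries a protein-coding symbol written Col, a number, the letter a and a second number. This gave 44 genes of the 53465 in the deposited files. By the collagens they encode, 8 were classed as fibrillar, 7 as cartilage, 8 as network forming, 6 as type VI, 6 as fibril-associated, 2 as multiplexins and 4 as transmembrane, and 3 stood outside these classes. There were 12 libraries in 4 groups of 3, each library made from 1 pair of forelimb buds of a Swiss albino embryo. In the first series, buds labelled Tbx3-deficient (Tbx3ΔVenus/ΔVenus) were compared with wild types at E9.75 to E10 (28 to 31 somites). Both copies of the deficient allele hold a Venus reporter with a stop of transcription and a polyadenylation signal placed at the start codon, in every cell of the embryo. In the second series, Hand2-deficient buds (Prrx1-Cre;Hand2Δ/Δc) were compared with buds of the genotype Prrx1-Cre;Hand2+/+ at E10 to E10.25 (31 to 33 somites). All 6 embryos of the second series therefore carried Prrx1-Cre, a recombinase driven in limb mesenchyme, and cells that the driver does not reach keep the conditional copy of Hand2. Neither litters nor the somite count of single embryos are stated in the labels, so p-values cover the spread between these embryos. By its title, the series addresses genes controlled by TBX3 and those it shares with HAND2, both transcription factors of the limb mesenchyme.

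Collagens are built from chains that wind into a triple helix through repeats of glycine followed by other residues, many of them hydroxylated proline and lysine. Fibrillar chains (types I, III and V) assemble into cross-striated fibrils of the mesenchyme, and types II, IX and XI do so in cartilage. Type IV chains form the sheet of basement membranes, and type VI chains form beaded filaments close to cells. In the limb bud at these stages the mesenchyme has a loose matrix and has not yet condensed to cartilage.

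Total counts ran from 24.2 to 31.8 M (M, 1000000) in Tbx3-deficient and from 23.3 to 25.8 M in Tbx3 wild-type libraries, and from 60.2 to 65.7 M in Hand2-deficient and from 64.4 to 68.6 M in Hand2 wild-type libraries. Of these counts, the 44 collagen genes took 0.240% to 0.266% in Tbx3-deficient and 0.235% to 0.265% in Tbx3 wild-type buds. They took 0.317% to 0.366% in Hand2-deficient and 0.260% to 0.305% in Hand2 wild-type buds. The targeted gene fitted the Hand2 labels, at 0.187, 2.21 and 0.384 CPM (counts per 1000000, TMM scaled within a series) in Hand2-deficient against 119.6, 120.3 and 126 CPM in wild-type buds. Tbx3 itself stood at 80.6, 79.3 and 73.3 CPM in buds labelled Tbx3-deficient, against 78.0, 77.3 and 79.3 CPM in wild-type buds. These overlapped, although the allele places a stop of transcription and a polyadenylation signal at the start codon. It removes no exon by its label, and why the counts overlap was not tested. The count of the gene thus does not bear out the label Tbx3-deficient. Every direction given for the Tbx3 comparison rests on that label. Embryos read as male from X- and Y-linked genes were 2 of 3 Tbx3-deficient against 0 of 3 wild-type embryos, and 2 of 3 Hand2-deficient against 1 of 3 wild-type embryos. Hand2-deficient replicate 1 had 5.37% of its counts on 1 gene.

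Per exon length, with all annotated exons of a gene merged, the collagens with the highest levels were the basement membrane and type III chains. Col4a1, a chain of type IV collagen, averaged 172 TPM in Tbx3-deficient and 181 TPM in Tbx3 wild-type buds, and 196 TPM in Hand2-deficient and 203 TPM in Hand2 wild-type buds (TPM being the count per exon length, scaled to sum to 1000000 in a library). It was followed, over all 12 libraries, by Col3a1 (type III), Col18a1 (a basement membrane multiplexin and the source of endostatin), Col4a2, Col1a2, Col26a1, Col2a1 and Col1a1. The order depends on the length used. Merged exons have 12426 bases for Col1a2, 9816 for Col3a1 and 7464 for Col4a1, and the longest transcripts have 5348, 5564 and 6615. Per longest transcript Col3a1 stands above Col4a1 in every group, and so does Col1a2 in Hand2-deficient buds. Col26a1, also named Emid2, had 64.8 TPM in Tbx3-deficient, 70.1 TPM in Tbx3 wild-type, 84.7 TPM in Hand2-deficient and 75.8 TPM in Hand2 wild-type buds. In the order by merged exons Col1a2 held place 4 in Hand2-deficient and place 6 in Hand2 wild-type buds, and place 8 in Tbx3-deficient and place 7 in Tbx3 wild-type buds. Neighbours in the order were often not apart. In Hand2-deficient buds Col4a1 and Col3a1, at 196 and 195 TPM, had overlapping libraries, as had Col18a1 and Col1a2 at 160.5 and 156 TPM. In Tbx3 wild-type buds Col2a1, Col1a2 and Col1a1 overlapped, at 57.9, 57.7 and 46.8 TPM.

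**Figure D1:**
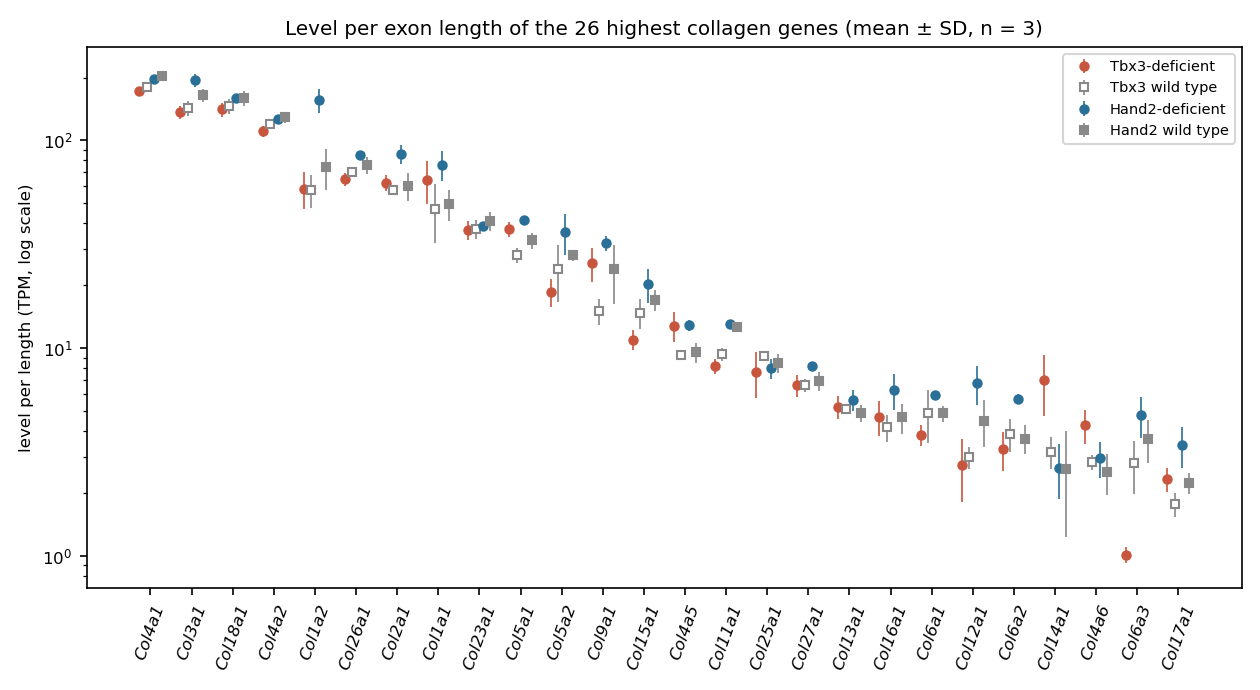
Level per exon length (TPM, log scale) of the 26 collagen genes with the highest levels, as mean and SD of 3 libraries, Tbx3-deficient, Tbx3 wild type, Hand2-deficient and Hand2 wild type side by side. By this length, all annotated exons merged, Col4a1 leads in all 4 groups, while per longest transcript Col3a1 stands above it in every group. Col1a2 stands at 156 TPM in Hand2-deficient against 74.3 TPM in wild-type buds, and Col6a3 at 1.01 TPM in Tbx3-deficient against 2.78 TPM in wild-type buds.

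Genotypes were compared by edgeR's quasi-likelihood test, p-values were adjusted after Benjamini and Hochberg over every gene tested, and calls were made under an adjusted p of 0.05. A gene described as called, or as not called, with no other tool named is so by this test. In Hand2-deficient buds 5 of the 37 collagen genes tested were called (13.5%), all of them higher: Col1a2, Col5a1, Col4a5, Col6a2 and Col28a1. Of all 17489 genes tested there, 10.5% were called, 4.68% higher and 5.82% lower. The fold change was positive for 30 collagen genes and negative for 7, with a median log2 fold change of 0.30, against 52.1% positive and a median of 0.01 over all genes tested. In 16 of the 37, all 3 deficient libraries lay above all 3 wild types (18.7% of all genes), and in none of them below (19.5% of all genes). In buds labelled Tbx3-deficient 1 of 35 was called, Col6a3, which was lower. Of all 15131 genes tested there, 1.01% were called, 0.727% higher and 0.284% lower. There the fold change was positive for 17 collagen genes and negative for 18, with a median log2 fold change of -0.01, against 49.2% positive and a median of 0.00 over all genes. All 3 deficient libraries lay above all 3 wild types for 6 collagen genes (10.7% of all genes) and below for 3 (9.95% of all genes). DESeq2 called 12 of the 37 in the Hand2 comparison (19.9% of all genes) and 6 of the 35 in the Tbx3 comparison (3.64% of all genes), while limma-voom called 6 in the Hand2 comparison (10.4% of all genes) and 0 in the Tbx3 comparison (0.654% of all genes). Under an unadjusted p of 0.05 in edgeR were 18 of the 37 in the Hand2 comparison, against 32.4% of all genes, and 8 of the 35 in the Tbx3 comparison, against 14.3% of all genes. In bulk tissue, fewer cells that make a transcript and less of it per cell cannot be told apart.

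**Figure D2:**
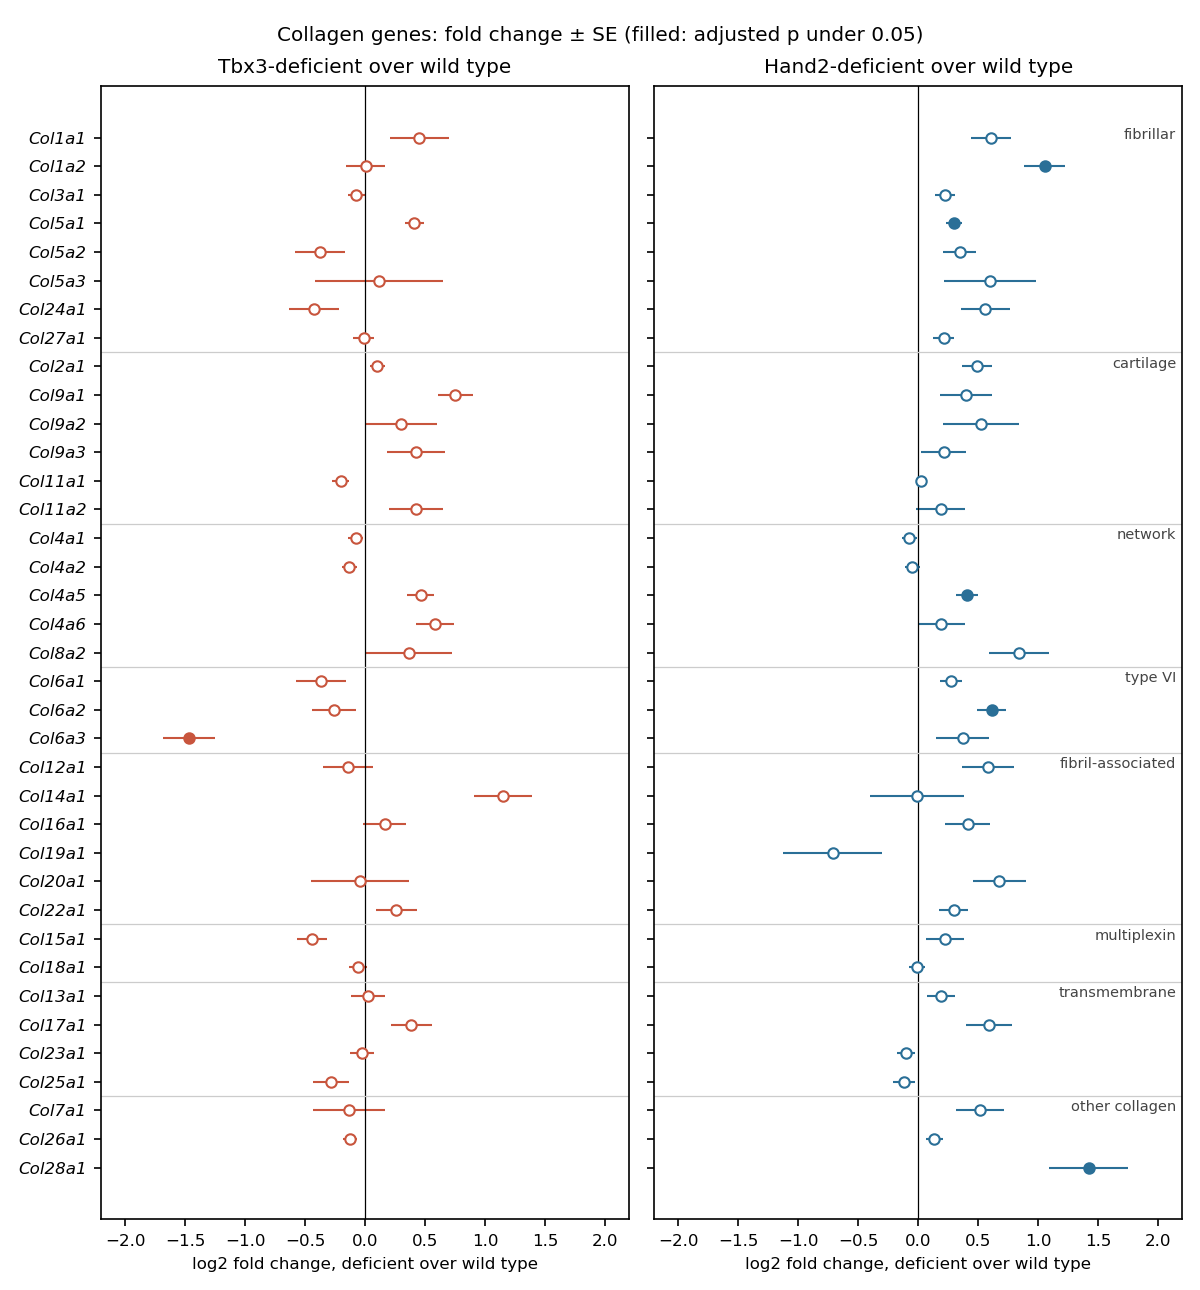
Log2 fold change (deficient over wild type) with its SE for the collagen genes tested, Tbx3 comparison on the left and Hand2 comparison on the right, grouped by class, filled where the adjusted p was under 0.05. In the Hand2 comparison all 8 fibrillar and all 6 tested cartilage genes lie right of 0, as do 52.1% of all genes tested. In the Tbx3 comparison Col6a3 is the filled point, at -1.47.

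Promoter windows were at hand for 35 of the 44 genes. Upstream sequences are shown for the 6 called collagen genes, which were chosen by their calls alone. They are the bases before the RefSeq start on GRCm38.p6, 5′ to 3′ on the gene's strand, kept to the stretch without annotated exons. Capitals mark GGGCGG or its complement CCGCCC (a GC box, bound by SP factors) and CANNTG (an E-box, the site class of bHLH factors such as HAND2). GGTGTG, a core of T-box sites, was searched too, all 3 motifs on both strands, and no 2 matches overlapped.
Col1a2, chr6:4505370-4505492, plus strand: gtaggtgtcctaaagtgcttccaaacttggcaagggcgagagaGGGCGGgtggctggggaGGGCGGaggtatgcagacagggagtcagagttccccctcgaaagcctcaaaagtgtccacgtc
Col5a1, chr2:27886175-27886424, plus strand: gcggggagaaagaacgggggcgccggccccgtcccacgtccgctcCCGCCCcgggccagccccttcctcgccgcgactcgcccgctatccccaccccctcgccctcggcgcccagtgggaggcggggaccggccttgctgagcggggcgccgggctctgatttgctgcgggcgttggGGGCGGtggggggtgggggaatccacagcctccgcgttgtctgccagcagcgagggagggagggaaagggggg
Col4a5, chrX:141475169-141475384, plus strand: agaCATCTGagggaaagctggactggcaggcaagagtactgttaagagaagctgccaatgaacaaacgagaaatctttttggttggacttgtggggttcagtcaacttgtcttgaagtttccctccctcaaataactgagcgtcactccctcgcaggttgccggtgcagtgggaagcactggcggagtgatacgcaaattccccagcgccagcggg
Col6a2, chr10:76623631-76623880, minus strand: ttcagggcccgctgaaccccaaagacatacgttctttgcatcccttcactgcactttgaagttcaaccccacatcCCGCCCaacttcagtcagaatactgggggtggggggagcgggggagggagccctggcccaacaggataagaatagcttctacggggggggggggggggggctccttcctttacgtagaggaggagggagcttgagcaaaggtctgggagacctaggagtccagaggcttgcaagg
Col6a3, chr1:90843972-90844221, minus strand: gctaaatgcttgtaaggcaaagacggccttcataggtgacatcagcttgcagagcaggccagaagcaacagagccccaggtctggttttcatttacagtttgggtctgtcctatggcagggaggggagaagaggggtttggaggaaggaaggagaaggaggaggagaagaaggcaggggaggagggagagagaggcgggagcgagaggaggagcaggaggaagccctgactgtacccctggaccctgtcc
Col28a1, chr6:8192618-8192867, minus strand: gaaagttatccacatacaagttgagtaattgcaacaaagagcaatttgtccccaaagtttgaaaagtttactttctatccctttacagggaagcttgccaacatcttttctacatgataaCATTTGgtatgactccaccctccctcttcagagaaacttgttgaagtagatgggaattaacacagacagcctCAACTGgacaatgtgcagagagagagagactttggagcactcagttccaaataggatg
The Col1a2 stretch of 123 bases held 2 GC boxes, where 13.3% of all windows cut at the same place held at least 1. This stretch lies before the RefSeq start but inside the gene as GENCODE places it, from 4504814 onward. Col5a1, at 76.4% G and C against a median of 52.4% over all 32851 windows, also held 2, Col6a2 held 1 and the others held none. A GC box was in 32.7% of all windows of 250 bases and in 27.9% of those cut as for Col4a5. Col28a1 held 2 E-boxes and Col4a5 held 1, and the other 4 held none. An E-box was in 66.2% of all windows of 250 bases, in 61.6% of those cut as for Col4a5 and in 42.8% of those cut as for Col1a2. The T-box core was in none of the 6. It was in 16.3% of all windows of 250 bases, in 14.4% of those cut as for Col4a5 and in 8.24% of those cut as for Col1a2. These are counts of letters in short windows and say nothing of binding.

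Of the 8 fibrillar collagen genes, 2 were called higher in Hand2-deficient buds (4.68% of all genes), Col1a2 and Col5a1. All 8 fold changes were positive there (52.1% of all genes), with a median log2 fold change of 0.45. Of the 8, 7 lay above all wild types in every deficient library (18.7% of all genes), and 7 were under an unadjusted p of 0.05 (32.4% of all genes). Col1a2 (ENSMUSG00000029661, chromosome 6, 4504814 to 4541544, GRCm38) encodes the partner chain of type I collagen, the main protein of bone and skin fibrils. It had 677, 494 and 577 CPM in Hand2-deficient buds, against 220.1, 341 and 281 CPM in wild-type buds. Every deficient library lay well above every wild type, and the mean rose 2.08-fold (583 ± 91.9 against 281 ± 60.4 CPM, SD, n = 3; log2 fold change 1.05, SE 0.174, adjusted p = 0.0202). The call was lost without deficient replicate 1, deficient replicate 3 or wild-type replicate 3, with adjusted p from 0.0159 to 0.0829 over the 6 fits that leave out 1 library. With embryo sex in the fit its adjusted p was 0.0514, above the threshold. In buds labelled Tbx3-deficient it had 263, 208 and 189 CPM, against 248, 172 and 237 CPM in wild-type buds. These overlapped (log2 fold change 0.01, SE 0.161, adjusted p = 0.99). The difference between the Hand2 and the Tbx3 effect was 1.05 with an adjusted p of 0.0753 in edgeR and 0.0179 in DESeq2.

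Col1a1, which supplies the other chain of type I collagen, had 184, 128 and 139 CPM in Hand2-deficient buds, against 104, 111 and 79.3 CPM in wild-type buds. The groups did not overlap, and the gene missed the threshold in edgeR (log2 fold change 0.61, SE 0.167, adjusted p = 0.0597) and passed in DESeq2 (adjusted p = 0.0272). It overlapped in the Tbx3 series, at 142, 147 and 95.9 CPM in deficient and 123, 62.5 and 96.5 CPM in wild-type buds (log2 fold change 0.45, SE 0.246, adjusted p = 0.466). The ratio of Col1a1 to Col1a2, both per exon length, was 0.514, 0.491 and 0.455 in Hand2-deficient buds, against 0.899, 0.618 and 0.534 in wild-type buds, without overlap. In the Tbx3 series this ratio ran the other way, at 1.02, 1.34 and 0.960 in deficient and 0.938, 0.689 and 0.770 in wild-type buds. The groups were apart only by the narrow gap between 0.960 and 0.938. Deficient replicates 1 and 2, with the higher ratios, were read as male and all other embryos of this series as female. With embryo sex in the edgeR fit, the Tbx3 log2 fold change of Col1a1 was 0.03 (adjusted p = 0.993). The ratios were not tested.

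Col5a1 (ENSMUSG00000026837, chromosome 2, 27886425 to 28039514) encodes a chain of type V collagen, which starts fibrils and sets their width. It had 110.4, 105 and 99.5 CPM in Hand2-deficient buds, against 86.0, 92.2 and 77.9 CPM in wild-type buds. No deficient library lay within the wild-type range, and it rose by a small step (log2 fold change 0.30, SE 0.0676, adjusted p = 0.0417). Among the 6 fits with 1 library left out it was called only without wild-type replicate 2 (adjusted p from 0.0283 to 0.124), and it was not called with embryo sex in the fit (adjusted p = 0.0608). Tbx3 libraries had 96.0, 104 and 89.9 CPM in deficient and 79.0, 67.2 and 71.8 CPM in wild-type buds. Again every deficient library lay above every wild type, and the gene missed the threshold in edgeR (log2 fold change 0.41, SE 0.0767, adjusted p = 0.0627) and passed in DESeq2 (adjusted p = 0.000243). Reads of 2 lowly counted antisense transcripts that share exonic bases with Col5a1 cannot be told from its own, since the strand setting is not stated.

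Col3a1, the chain of type III collagen that mixes with type I in soft fibrils, had 640.2, 526 and 557 CPM in Hand2-deficient buds, against 465, 524 and 484 CPM in wild-type buds. The groups were apart by a small gap, and the gene was not called by edgeR (log2 fold change 0.23, SE 0.0818, adjusted p = 0.11) and was called by DESeq2 (adjusted p = 0.0282). With overlap, it had 427, 384 and 410.5 CPM in buds labelled Tbx3-deficient and 468, 398 and 421 CPM in their wild types (log2 fold change -0.07, SE 0.0722, adjusted p = 0.694). The ratio of Col1a2 to Col3a1 per exon length was 0.836, 0.742 and 0.819 in Hand2-deficient buds, against 0.374, 0.514 and 0.459 in wild-type buds, and the 3 deficient libraries were clear of all others in both series. Col5a2, which pairs with Col5a1 and lies 24615 bp from Col3a1 on chromosome 1, had a log2 fold change of 0.35 in the Hand2 comparison (adjusted p = 0.133 in edgeR and 0.0364 in DESeq2) and -0.38 in the Tbx3 comparison (adjusted p = 0.475). The minor fibrillar genes Col5a3, Col24a1 and Col27a1 had log2 fold changes of 0.60, 0.56 and 0.21 in the Hand2 comparison, none called by edgeR, DESeq2 or voom. In the Tbx3 comparison they had 0.11, -0.43 and -0.01. No fibrillar gene was called there by edgeR or voom. Of the 8, 1 was under an unadjusted p of 0.05 (14.3% of all genes) and DESeq2 called 1 (3.64% of all genes), Col5a1 in both cases.

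Summed over the 8 fibrillar genes, Hand2-deficient libraries had 1748, 1374 and 1534 CPM, against 988, 1184 and 1029 CPM in wild-type libraries. Deficient replicate 2 was the lowest of its group and wild-type replicate 2 the highest of its own. In the same libraries, 6 markers of limb mesenchyme summed to 1660.1 to 2089 CPM in Hand2-deficient against 1467 to 1644 CPM in wild-type buds. Of these markers Prrx2, Twist1 and Lhx2 were called higher (4.68% of all genes), and Prrx1, Tbx5 and Msx1 were not called. The part of this in the collagen values was not tested. As a share of all collagen per exon length, the fibrillar class took 39.4, 37.2 and 37.6% in Hand2-deficient and 31.2, 32.3 and 30.3% in wild-type buds. Fibrillar sums overlapped in the Tbx3 series, at 1013, 916 and 876 CPM in deficient and 997, 794 and 951 CPM in wild-type buds.

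**Figure D3:**
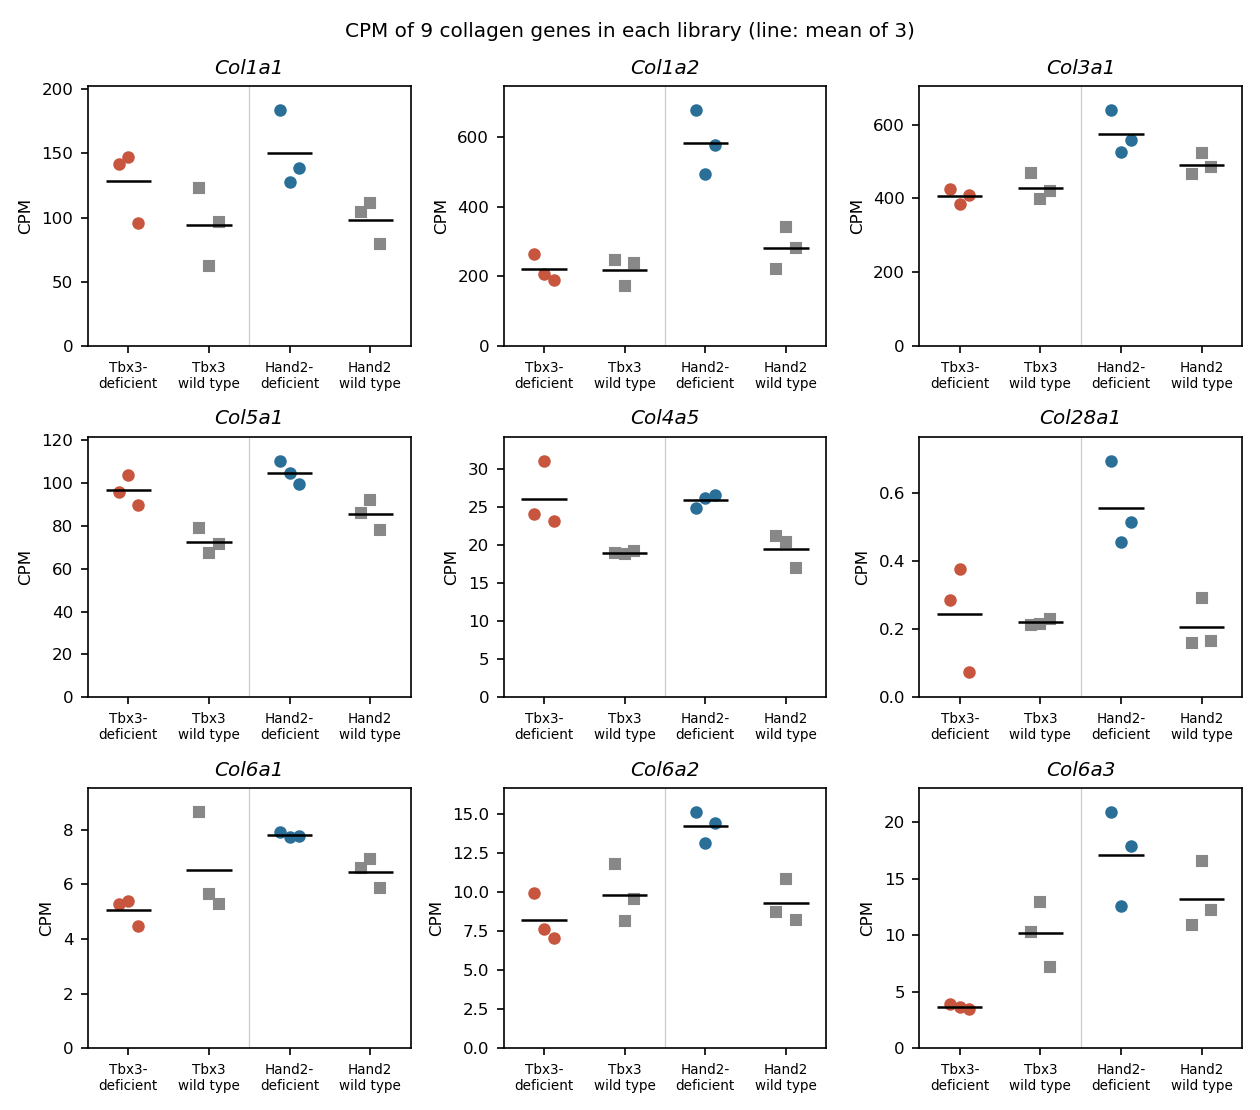
CPM of 9 collagen genes in each library, with the mean of 3 as a line, Tbx3-deficient, Tbx3 wild type, Hand2-deficient and Hand2 wild type running from left to right. The 3 Hand2-deficient libraries sit above the 3 wild types for Col1a1, Col1a2, Col3a1, Col5a1, Col4a5, Col28a1, Col6a1 and Col6a2, and the 3 libraries labelled Tbx3-deficient sit below their wild types for Col6a3, at 3.91, 3.66 and 3.44 CPM.

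Of the cartilage collagen genes, none was called by edgeR in either comparison. Col2a1, the chain of type II collagen that marks cells committed to cartilage, had 263, 204 and 247 CPM in Hand2-deficient buds, against 156, 197 and 156 CPM in wild-type buds. The groups did not overlap and the adjusted p was 0.0502, just above the threshold (log2 fold change 0.49, SE 0.124). It passed in DESeq2 (adjusted p = 0.000307) and in limma-voom (adjusted p = 0.0475). For Tbx3, Col2a1 had 187, 163 and 177 CPM in deficient and 163, 157 and 171 CPM in wild-type buds, with overlap (log2 fold change 0.10, SE 0.0633, adjusted p = 0.518).

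Col9a1, a chain of type IX collagen on the surface of cartilage fibrils, had 42.0, 44.1 and 31.7 CPM in buds labelled Tbx3-deficient, against 23.2, 19.9 and 26.8 CPM in wild-type buds. Every deficient library was above every wild type, though the gene was not called (log2 fold change 0.75, SE 0.146, adjusted p = 0.069). It passed in DESeq2 (adjusted p = 4.16e-05) and in edgeR without deficient replicate 3 (adjusted p = 0.0437), and had an adjusted p of 0.498 with embryo sex in the fit. In the Hand2 series it overlapped, at 54.6, 43.8 and 47.5 CPM in deficient and 24.3, 46.4 and 39.6 CPM in wild-type buds. The other tested cartilage genes were Col9a2, Col9a3, Col11a1 and Col11a2, partner chains of types IX and XI. Their log2 fold changes ran from 0.03 to 0.53 in the Hand2 comparison and from -0.20 to 0.43 in the Tbx3 comparison. Under an unadjusted p of 0.05 were 1 of the 6 in the Hand2 comparison (32.4% of all genes) and 2 in the Tbx3 comparison (14.3% of all genes). Col9a3 shares 234 exonic bases with Tcfl5 on the opposite strand, so its counts are uncertain. Col10a1, the collagen of hypertrophic cartilage, had 16 counts over all 12 libraries.

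Of the cartilage regulators, Sox9, which switches on Col2a1 in chondrocytes, had 82.8, 64.7 and 63.1 CPM in Hand2-deficient and 50.3, 70.5 and 78.3 CPM in wild-type buds, with overlap (log2 fold change 0.08, SE 0.173, adjusted p = 0.778). Sox5, its partner in cartilage, had 39.5, 31.0 and 38.9 CPM in Hand2-deficient buds, against 20.2, 25.3 and 26.4 CPM in wild-type buds. It rose without overlap (log2 fold change 0.60, SE 0.129, adjusted p = 0.0372) and was called in 2 of the 6 fits with 1 library left out, those without replicate 2 of either group. With embryo sex in the fit its adjusted p was 0.0518. It was the 1 called gene of 6 tested in the Hand2 comparison among 8 chondrogenic factors and matrix genes, where 10.5% of all genes were called. Of 4 tested in the Tbx3 comparison edgeR called 0 (1.01% of all genes), and 1 was under an unadjusted p of 0.05 (14.3% of all genes). DESeq2 called 1 of these, Sox6 (3.64% of all genes), and voom called 0 (0.654% of all genes). Hapln1, a cartilage link protein, had log2 fold changes of 0.06 in the Hand2 and 0.01 in the Tbx3 comparison.

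The genes of the major basement membrane chains, Col4a1 and Col4a2, were called in neither comparison. Col4a1 had 471, 414 and 434 CPM in Hand2-deficient and 443, 459 and 485 CPM in wild-type buds (log2 fold change -0.07, SE 0.0608, adjusted p = 0.441). It had 384, 374 and 415 CPM in Tbx3-deficient and 389.8, 429.6 and 420.1 CPM in Tbx3 wild-type buds (log2 fold change -0.08, SE 0.0613, adjusted p = 0.606). Groups overlapped in both comparisons. Col4a2, which is transcribed away from Col4a1 on chromosome 8 and shares 22 exonic bases with it, had 269, 235 and 253 CPM in Hand2-deficient and 248, 257 and 277 CPM in wild-type buds. It had 226, 208 and 231 CPM in Tbx3-deficient and 231, 246 and 252 CPM in wild-type buds. The ratio of Col4a1 to Col4a2 per exon length lay between 1.48 and 1.59 in all 12 libraries, and of the 7 chain ratios computed it had the smallest range relative to its level. The summed level of the 8 network genes was 772, 685 and 723 CPM in Hand2-deficient and 720.2, 744 and 784 CPM in wild-type buds.

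**Figure D4:**
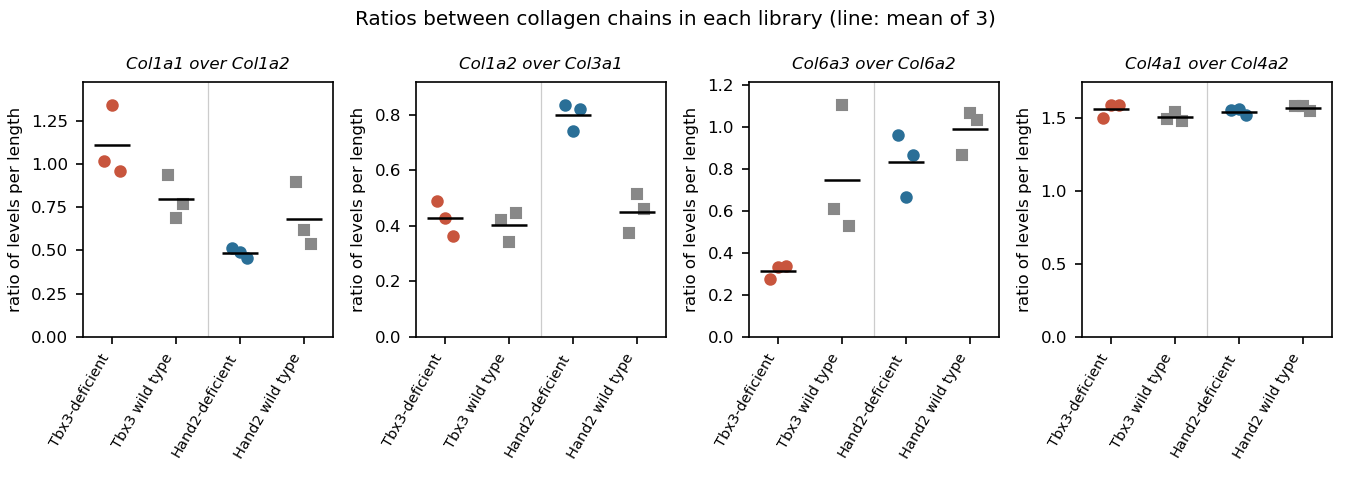
Ratio of levels per exon length between pairs of collagen chains in each library (line, mean of 3), Tbx3-deficient, Tbx3 wild type, Hand2-deficient and Hand2 wild type running from left to right. Col1a2 over Col3a1 is 0.836, 0.742 and 0.819 in Hand2-deficient buds, Col6a3 over Col6a2 is 0.274, 0.334 and 0.339 in buds labelled Tbx3-deficient, and Col4a1 over Col4a2 stays between 1.48 and 1.59.

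Col4a5 (ENSMUSG00000031274, chromosome X, 141475385 to 141689234) encodes a type IV chain that pairs with Col4a6 in the basement membrane of skin and smooth muscle, and with Col4a3 and Col4a4 in the kidney glomerulus. It had 24.9, 26.2 and 26.5 CPM in Hand2-deficient buds, against 21.1, 20.4 and 16.9 CPM in wild-type buds. The groups did not overlap and it rose (log2 fold change 0.41, SE 0.0913, adjusted p = 0.0399). It was called without wild-type replicate 2 and in none of the other fits that leave out 1 library (adjusted p from 0.0491 to 0.105), and it kept its call with embryo sex in the fit (adjusted p = 0.0468). Tbx3 libraries had 24.1, 31.1 and 23.2 CPM in deficient and 18.9, 18.8 and 19.2 CPM in wild-type buds, without overlap and not called by edgeR (log2 fold change 0.46, SE 0.114, adjusted p = 0.124), though called by DESeq2 (adjusted p = 0.0210). Col4a6, its neighbour on the X chromosome, had 8.38, 12.4 and 10.1 CPM in Tbx3-deficient and 7.51, 6.63 and 6.49 CPM in wild-type buds, also without overlap (log2 fold change 0.58, SE 0.162, adjusted p = 0.16). Its Hand2 log2 fold change was 0.19 (adjusted p = 0.523). Col8a2, a chain of the short-chain network collagen of corneal and vascular membranes, had log2 fold changes of 0.84 in the Hand2 comparison (adjusted p = 0.0744 in edgeR and 0.0317 in DESeq2) and 0.37 in the Tbx3 comparison (adjusted p = 0.698). Col4a3, Col4a4 and Col8a1 had 33, 25 and 49 counts over 12 libraries and were not tested.

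Type VI collagen genes held the 1 call of the Tbx3 comparison and the 1 call for a difference between the series. Col6a3 (ENSMUSG00000048126, chromosome 1, 90765923 to 90843971), the large chain that joins Col6a1 and Col6a2 in the filament unit, had 3.91, 3.66 and 3.44 CPM in buds labelled Tbx3-deficient, against 10.3, 13.0 and 7.22 CPM in wild-type buds. The deficient libraries lay close together and all below the wild types, and the mean fell to 3.67 ± 0.232 CPM in deficient buds, against 10.2 ± 2.87 CPM in wild-type buds (SD, n = 3; log2 fold change -1.47, SE 0.216, adjusted p = 0.033). Wild-type buds had 2.77 times the level of deficient buds. Among the 6 fits with 1 library left out it was called only without wild-type replicate 3 (adjusted p from 0.0223 to 0.120). With embryo sex in the fit the adjusted p was 0.268, and in limma-voom it was 0.0558.

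In the Hand2 series Col6a3 had 20.9, 12.6 and 17.9 CPM in deficient buds, against 10.9, 16.6 and 12.2 CPM in wild-type buds. The groups overlapped, with wild-type replicate 2 above deficient replicate 2 (log2 fold change 0.37, SE 0.220, adjusted p = 0.282). The Hand2 effect exceeded the Tbx3 effect by 1.84 on the log2 scale (SE 0.337, adjusted p = 0.0238, edgeR interaction over 12 libraries). Col6a3 was the 1 collagen gene of 37 called for this difference, beside 1.68% of all 17360 genes tested (0.789% higher and 0.893% lower). Of the 37, 13 were under an unadjusted p of 0.05 (17.4% of all genes), and DESeq2 called 3 (4.95% of all genes), adding Col1a2 and Col6a2. The call held in 6 of the 12 fits that leave out 1 library and ended without Tbx3 wild-type replicate 1, Tbx3-deficient replicate 2 or 3, Hand2 wild-type replicate 1 or 3, or Hand2-deficient replicate 1 (adjusted p from 0.0171 to 0.0667). Stage, targeted gene, kind of allele and depth differ together between the series and cannot be told apart.

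Col6a2 (ENSMUSG00000020241, chromosome 10, 76595762 to 76623630) had 15.1, 13.1 and 14.4 CPM in Hand2-deficient buds, against 8.75, 10.9 and 8.22 CPM in wild-type buds. It rose without overlap (log2 fold change 0.62, SE 0.121, adjusted p = 0.0307), a call that held without replicate 2 of either group and ended without any 1 of the other 4 libraries (adjusted p from 0.0159 to 0.106) or with embryo sex in the fit (adjusted p = 0.0667). In the Tbx3 series it had 9.93, 7.64 and 7.07 CPM in deficient and 11.8, 8.14 and 9.53 CPM in wild-type buds, with overlap (log2 fold change -0.26, SE 0.183, adjusted p = 0.57). Col6a1, which lies 85162 bp from Col6a2 on the same strand, had 7.91, 7.75 and 7.78 CPM in Hand2-deficient buds, against 6.59, 6.93 and 5.88 CPM in wild-type buds. These did not overlap and were not called (log2 fold change 0.27, SE 0.0901, adjusted p = 0.0902). In buds labelled Tbx3-deficient Col6a1 had 5.29, 5.40 and 4.48 CPM, against 8.66, 5.63 and 5.30 CPM in wild-type buds, with overlap (log2 fold change -0.37, SE 0.210, adjusted p = 0.483).

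All 3 tested type VI genes thus had a negative fold change in the Tbx3 and a positive one in the Hand2 comparison. Over all genes, 49.2% and 52.1% were positive in these comparisons. In each, 1 type VI gene was called, beside 1.01% and 10.5% of all genes. The type VI class summed to 19.3, 16.8 and 15.1 CPM in buds labelled Tbx3-deficient, against 31.0, 26.9 and 22.3 CPM in wild-type buds, without overlap. Of the 3 tested genes Col6a3 alone lay below all wild types in every deficient library (9.95% of all genes), while Col6a1 and Col6a2 overlapped. Without wild-type replicate 1 the log2 fold changes of Col6a1 and Col6a2 were -0.11 and -0.10. The 6 limb mesenchyme markers summed in the Tbx3 series to 1274 to 1462 CPM in deficient against 1571 to 1594 CPM in wild-type buds. Of these markers 1 was called, Tbx5, which was lower (0.284% of all genes). The part of this in the type VI values was not tested. Type VI summed to 44.1, 33.6 and 40.2 CPM in Hand2-deficient and 26.5, 34.6 and 26.5 CPM in wild-type buds, where deficient replicate 2 lay below wild-type replicate 2. The ratio of Col6a3 to Col6a2 per exon length was 0.274, 0.334 and 0.339 in buds labelled Tbx3-deficient, against 0.610, 1.11 and 0.528 in wild-type buds. It was 0.963, 0.668 and 0.867 in Hand2-deficient and 0.869, 1.07 and 1.04 in Hand2 wild-type buds, so the 3 libraries labelled Tbx3-deficient had the lowest ratios of the 12. Col6a4, Col6a5 and Col6a6, later additions to the family, had 16, 10 and 66 counts over 12 libraries and were not tested.

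Of the fibril-associated genes none was called by edgeR or limma-voom. Col14a1, whose protein binds fibrils in tendon and skin, had 11.2, 20.7 and 13.0 CPM in buds labelled Tbx3-deficient, against 6.96, 7.84 and 5.53 CPM in wild-type buds. Every deficient library was above every wild type, and replicate 2 was the highest. The gene was not called by edgeR (log2 fold change 1.15, SE 0.243, adjusted p = 0.0875) and it passed in DESeq2 (adjusted p = 0.000121). In the Hand2 series it had 3.82, 6.44 and 6.39 CPM in deficient and 8.97, 4.79 and 3.07 CPM in wild-type buds, a wide and overlapping spread (log2 fold change -0.01, SE 0.391, adjusted p = 0.986). Col12a1, its relative in dense connective tissue, had a Hand2 log2 fold change of 0.58 (adjusted p = 0.117 in edgeR and 0.0170 in DESeq2) and a Tbx3 log2 fold change of -0.14. Col16a1, Col20a1 and Col22a1 had 0.41, 0.68 and 0.30 in the Hand2 comparison and 0.16, -0.04 and 0.26 in the Tbx3 comparison. Col20a1 shares 79 exonic bases with another annotated gene, which leaves its level uncertain. Col19a1 was tested in the Hand2 series alone, at a log2 fold change of -0.71 (adjusted p = 0.273). Under an unadjusted p of 0.05 were 3 of 6 tested in the Hand2 comparison, against 32.4% of all genes, and 1 of 5 in the Tbx3 comparison, against 14.3% of all genes.

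Among the multiplexins, Col18a1 had 354, 318 and 341 CPM in Hand2-deficient and 317, 366 and 336 CPM in wild-type buds, and 316, 281 and 302 CPM in Tbx3-deficient and 296, 297 and 344 CPM in Tbx3 wild-type buds. Both overlapped, with log2 fold changes of -0.01 (SE 0.0665) in the Hand2 and -0.06 (SE 0.0751) in the Tbx3 comparison. Col15a1, found in vessel and muscle basement membrane zones, had 23.1, 19.7 and 20.7 CPM in Tbx3-deficient and 33.6, 23.9 and 28.6 CPM in wild-type buds. The deficient libraries were all lower by a narrow gap and the gene was not called by edgeR (log2 fold change -0.44, SE 0.125, adjusted p = 0.169), though it was called by DESeq2 (adjusted p = 0.0426). Its Hand2 log2 fold change was 0.22 (adjusted p = 0.358). No multiplexin was under an unadjusted p of 0.05 in the Hand2 comparison (32.4% of all genes), and 1 of 2 was in the Tbx3 comparison (14.3% of all genes).

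The transmembrane genes Col13a1, Col17a1, Col23a1 and Col25a1 had Hand2 log2 fold changes of 0.19, 0.59, -0.10 and -0.12 and Tbx3 log2 fold changes of 0.02, 0.39, -0.02 and -0.29. Col17a1, the hemidesmosome collagen of basal keratinocytes, was above all wild types in both series, at 7.28, 4.49 and 6.76 CPM in Hand2-deficient against 3.62, 4.25 and 4.46 CPM in wild-type buds and 4.76, 3.85 and 4.15 CPM in Tbx3-deficient against 3.67, 2.77 and 3.30 CPM in wild-type buds. It was not called by edgeR (adjusted p = 0.0884 in the Hand2 and 0.367 in the Tbx3 comparison) and was called by DESeq2 in the Hand2 comparison (adjusted p = 0.0275). Outside these classes, Col7a1, the anchoring fibril of skin, had log2 fold changes of 0.52 in the Hand2 comparison (adjusted p = 0.123) and -0.14 in the Tbx3 comparison (adjusted p = 0.872). Col26a1 had 212, 199 and 211 CPM in Hand2-deficient and 188, 206 and 172 CPM in wild-type buds, and 169, 158 and 155 CPM in Tbx3-deficient and 178, 165 and 182 CPM in Tbx3 wild-type buds. These overlapped in both series (log2 fold change 0.14, SE 0.0690, adjusted p = 0.217 for Hand2 and log2 fold change -0.12, SE 0.0573, adjusted p = 0.389 for Tbx3).

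Col28a1 (ENSMUSG00000068794, chromosome 6, 7997808 to 8192617), a collagen of peripheral nerve, was the lowest of the called genes, at 0.696, 0.457 and 0.517 CPM in Hand2-deficient buds, against 0.159, 0.291 and 0.166 CPM in wild-type buds. It rose without overlap (log2 fold change 1.42, SE 0.332, adjusted p = 0.0434). The call ended without any 1 library other than wild-type replicate 2 (adjusted p from 0.0316 to 0.147) and when Hand2 counts were thinned to the depth of the Tbx3 series (adjusted p = 0.190). It was also lost with embryo sex in the fit (adjusted p = 0.0933). At that lower depth the gene did not pass the filter in the Tbx3 series itself, where it had 0.285, 0.379 and 0.0741 CPM in deficient and 0.213, 0.217 and 0.230 CPM in wild-type buds.

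Of 21 genes for modification and folding, 2 of 20 tested were called higher in buds labelled Tbx3-deficient (0.727% of all genes) and none lower (0.284% of all genes). In Hand2-deficient buds 4 of 21 were called higher (4.68% of all genes) and 2 lower (5.82% of all genes). DESeq2 called 5 in the Tbx3 comparison (3.64% of all genes), adding Plod1, Plod2 and Sparc. It called 8 in the Hand2 comparison (19.9% of all genes), adding P3h4 and Plod2. The Tbx3 log2 fold change of Sparc was 0.39 in DESeq2. With embryo sex in the edgeR fit it was 0.25 (adjusted p = 0.808). Limma-voom called 1 in the Tbx3 comparison (0.654% of all genes), P4ha1, and 6 in the Hand2 comparison (10.4% of all genes). The median log2 fold change was 0.10 in the Tbx3 and 0.05 in the Hand2 comparison. P4ha1, a catalytic subunit of prolyl 4-hydroxylase, had 137, 175 and 188 CPM in buds labelled Tbx3-deficient, against 80.6, 97.7 and 104 CPM in wild-type buds, and rose without overlap (log2 fold change 0.82, SE 0.133, adjusted p = 0.0402). P4ha2, its paralogue, had 21.2, 27.1 and 28.0 CPM in buds labelled Tbx3-deficient, against 15.0, 13.2 and 15.9 CPM in wild-type buds, and also rose (log2 fold change 0.79, SE 0.122, adjusted p = 0.0365). Both were called in 1 of the 6 fits that leave out 1 library, the one without deficient replicate 1, and in neither case with embryo sex in the fit (adjusted p = 0.111 for P4ha1 and 0.125 for P4ha2). Neither was called in the Hand2 comparison (log2 fold change -0.07 for P4ha1 and 0.11 for P4ha2), and P4ha1 was called for the difference of effects (-0.89, adjusted p = 0.0371). In the same libraries labelled Tbx3-deficient 11 of 13 genes of the hypoxia and glycolysis list were called higher (0.727% of all genes). The list summed to 5626 to 7834 CPM in deficient against 3806 to 4319 CPM in wild-type buds. The part of this in the P4ha1 and P4ha2 values was not tested.

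P4ha3, the third catalytic subunit, had 1.43, 0.701 and 1.12 CPM in Hand2-deficient buds, against 0.238, 0.291 and 0.227 CPM in wild-type buds. It rose, at a very low level (log2 fold change 2.09, SE 0.316, adjusted p = 0.0162), a call that ended without deficient replicate 3, wild-type replicate 1 or wild-type replicate 3. P3h3, a prolyl 3-hydroxylase family member, had 40.8, 34.4 and 39.2 CPM in Hand2-deficient buds, against 26.1, 29.9 and 27.5 CPM in wild-type buds, and rose (log2 fold change 0.45, SE 0.0808, adjusted p = 0.0239). Fkbp10, a chaperone of type I collagen, rose by a small step (log2 fold change 0.23, SE 0.0467, adjusted p = 0.0319). Sparc, a collagen-binding matrix protein, rose as well (log2 fold change 0.33, SE 0.0780, adjusted p = 0.0443). P3h2, a prolyl 3-hydroxylase of basement membrane collagen, fell to 9.47, 10.7 and 11.2 CPM in Hand2-deficient buds, against 15.4, 13.1 and 14.6 CPM in wild-type buds (log2 fold change -0.46, SE 0.0970, adjusted p = 0.0367). Plod3, a lysyl hydroxylase, fell slightly (log2 fold change -0.20, SE 0.0344, adjusted p = 0.0226). Serpinh1, the collagen chaperone HSP47, and P4hb, Ppib and Colgalt1, which were the other genes of this list with the highest levels, were not called by edgeR, DESeq2 or voom. Their log2 fold changes were -0.08, -0.07, -0.07 and -0.10 in the Hand2 and 0.05, 0.09, 0.06 and -0.02 in the Tbx3 comparison. With 1 library left out, P3h3 and Fkbp10 were called only without replicate 2 of either group, Sparc only without deficient replicate 1, and P3h2 only without wild-type replicate 2, while Plod3 lost its call without deficient replicate 3 or wild-type replicate 1 or 3. With embryo sex in the fit, adjusted p was 0.0573 for P3h3, 0.0536 for Fkbp10, 0.0745 for P3h2 and 0.0655 for Plod3, so these calls were lost. In the fit of all 12 libraries it was 0.0648 for Fkbp10 and 0.0938 for Sparc. P3h2 also lost its call when thinned to the depth of the Tbx3 series (adjusted p = 0.0669).

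**Figure D5:**
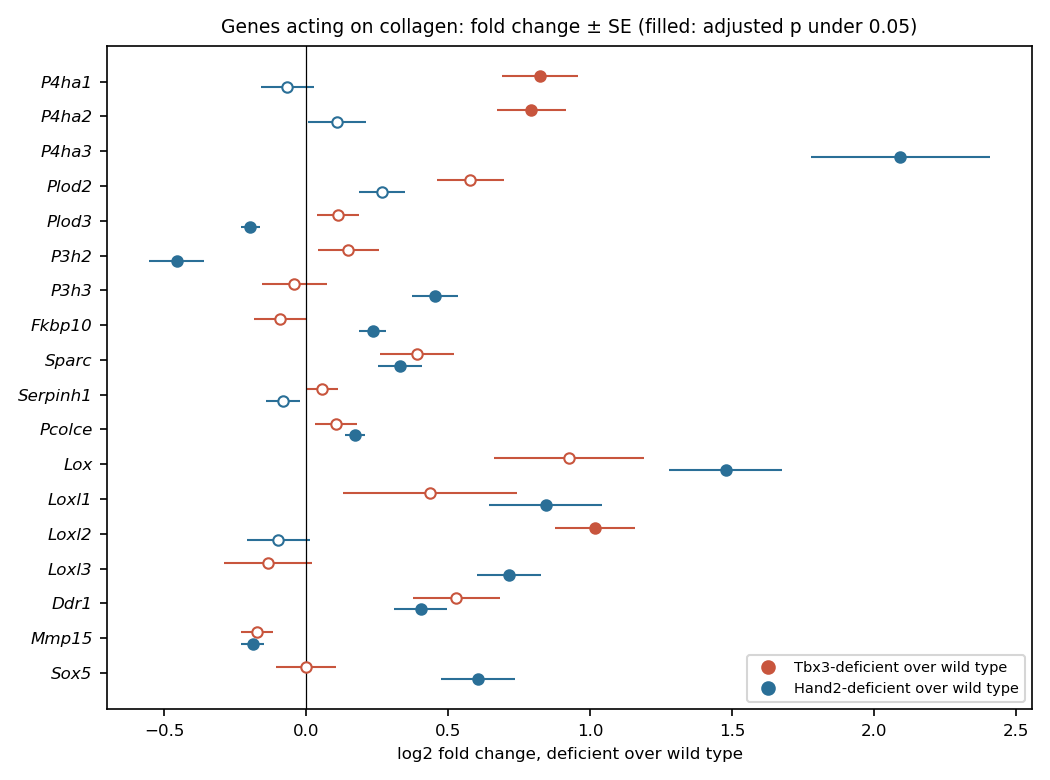
Log2 fold change (deficient over wild type) with its SE of genes that modify, crosslink, bind or cut collagen and of Sox5, for Tbx3-deficient (red) and Hand2-deficient (blue) over their wild types, filled where the adjusted p was under 0.05. Lox stands at 1.48 and P4ha3 at 2.09 in the Hand2 comparison, and Loxl2, P4ha1 and P4ha2 are the filled points of the Tbx3 comparison.

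Lysyl oxidase genes were called higher in both comparisons, Loxl2 in the Tbx3 and Lox, Loxl1 and Loxl3 in the Hand2 comparison. Of 13 genes for propeptide removal and crosslinking, 1 of 11 tested was called in the Tbx3 comparison (0.727% of all genes called higher) and 4 of 12 in the Hand2 comparison (4.68% of all genes called higher), all higher. DESeq2 called 3 in the Tbx3 comparison (3.64% of all genes), adding Adamts2 and Lox, and limma-voom called 1 (0.654% of all genes), Loxl2. In the Hand2 comparison DESeq2 (19.9% of all genes) and limma-voom (10.4% of all genes) each called the same 4 genes as edgeR. The median log2 fold change was 0.24 in the Tbx3 and 0.19 in the Hand2 comparison. Lox, lysyl oxidase, which starts the crosslinks of fibrils, had 9.42, 9.18 and 9.86 CPM in Hand2-deficient buds, against 3.09, 4.54 and 2.58 CPM in wild-type buds. The groups were far apart, and the gene rose 2.79-fold (log2 fold change 1.48, SE 0.200, adjusted p = 0.0113), a call that held in all 6 fits with 1 library left out (adjusted p from 0.00376 to 0.0441). In buds labelled Tbx3-deficient Lox had 7.20, 8.55 and 5.19 CPM, against 4.87, 2.64 and 3.53 CPM in wild-type buds, without overlap, not called by edgeR (log2 fold change 0.92, SE 0.263, adjusted p = 0.172) and called by DESeq2 (adjusted p = 0.0285). Loxl1, tied to elastic fibres, had 7.94, 8.76 and 8.71 CPM in Hand2-deficient buds, against 4.65, 6.10 and 3.42 CPM in wild-type buds, and rose (log2 fold change 0.84, SE 0.198, adjusted p = 0.0439). Loxl3 had 11.9, 10.2 and 11.8 CPM in Hand2-deficient buds, against 6.54, 7.83 and 6.35 CPM in wild-type buds, and rose (log2 fold change 0.72, SE 0.113, adjusted p = 0.018). Loxl1 was called only without wild-type replicate 2, and Loxl3 only without replicate 2 of either group. Pcolce, an enhancer of propeptide removal from fibrillar chains, rose by 0.17 on the log2 scale (adjusted p = 0.0323), a call that with 1 library left out also held only without wild-type replicate 2. In the fit of all 12 libraries the adjusted p was 0.0659 for Loxl1 and 0.0745 for Pcolce, and with embryo sex in the fit it was 0.0694 for Pcolce.

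Loxl2, a lysyl oxidase that acts on type IV collagen, had 129, 180.1 and 185 CPM in buds labelled Tbx3-deficient, against 91.1, 74.1 and 79.3 CPM in wild-type buds. It rose without overlap (log2 fold change 1.02, SE 0.140, adjusted p = 0.0264), and among the 6 fits with 1 library left out it was called without deficient replicate 1 alone. With embryo sex in the fit its adjusted p was 0.0819. These are the libraries in which 11 of 13 hypoxia and glycolysis genes were called higher (0.727% of all genes). The part of that in the Loxl2 values was not tested. In the Hand2 series it had 64.7, 76.8 and 72.2 CPM in deficient and 74.8, 88.4 and 65.6 CPM in wild-type buds (log2 fold change -0.10, SE 0.111, adjusted p = 0.572). The effects of the comparisons differed for Loxl2 (-1.11, adjusted p = 0.0228) and Loxl3 (0.85, adjusted p = 0.0463). Bmp1, the procollagen C-proteinase, had log2 fold changes of 0.20 in the Hand2 and -0.22 in the Tbx3 comparison, neither called. Adamts3, Pcolce2 and Adamts2, which remove or help remove propeptides, were not called by edgeR in either comparison.

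Among collagen receptors and breakdown enzymes edgeR called 2 genes, both in the Hand2 comparison. Of 7 tested collagen receptor genes, edgeR called 0 in the Tbx3 comparison, where 4 were under an unadjusted p of 0.05 (14.3% of all genes). DESeq2 called 1 of these 7, Ddr1 (3.64% of all genes), and voom 0 (0.654% of all genes). The Tbx3 log2 fold change of Ddr1 was 0.53 in DESeq2. With embryo sex in the edgeR fit it was 0.15 (adjusted p = 0.848). In the Hand2 comparison edgeR called 1 of 7, where 10.5% of all genes were called, the discoidin domain receptor gene Ddr1, at 38.2, 33.7 and 36.6 CPM in deficient against 27.6, 30.5 and 24.1 CPM in wild-type buds (log2 fold change 0.40, SE 0.0934, adjusted p = 0.0431). DESeq2 (19.9% of all genes) and limma-voom (10.4% of all genes) each called 2 there, Ddr1 and Itga11. Itgb1, Ddr2, Itga1 and Itga2, the other receptor genes with the highest levels, had Hand2 log2 fold changes from -0.16 to -0.01. Of 8 tested breakdown genes, edgeR called 0 in the Tbx3 comparison, where 4 were under an unadjusted p of 0.05 (14.3% of all genes). DESeq2 called 3 of these 8, Mmp2, Mmp14 and Ctsk (3.64% of all genes), and voom 0 (0.654% of all genes). In the Hand2 comparison Mmp15, a membrane-type metalloproteinase, was the 1 of 8 called, and was lower (log2 fold change -0.19, SE 0.0405, adjusted p = 0.0375), where 10.5% of all genes were called. Voom called Mmp15 as well (10.4% of all genes), and DESeq2 called Mmp15 and Mrc2 (19.9% of all genes). With 1 library left out, Ddr1 was called only without wild-type replicate 2 and Mmp15 only without deficient replicate 1. Both calls were lost with embryo sex in the fit (adjusted p = 0.0792 for Ddr1 and 0.0818 for Mmp15), that of Ddr1 also in the fit of all 12 libraries (adjusted p = 0.0764) and that of Mmp15 when thinned (adjusted p = 0.0551). Mmp2, Mrc2, Mmp14 and Mmp16 had Hand2 log2 fold changes of 0.02, 0.17, 0.08 and 0.20, none called by edgeR.

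Limb mesenchyme markers were present in every library, with Prrx1 at 439, 338 and 395 CPM in Tbx3-deficient, 480.3, 489 and 525 CPM in Tbx3 wild-type, 737, 579 and 618 CPM in Hand2-deficient and 505, 561 and 628 CPM in Hand2 wild-type buds. Endothelial markers summed to 315 to 348 CPM in Hand2-deficient against 298 to 299 CPM in wild-type buds, with 1 of 8 markers, Cdh5, called higher (4.68% of all genes). They summed to 294 to 345 CPM in Tbx3-deficient against 288 to 319 CPM in wild-type buds. Body wall and coelomic markers summed to 149 to 233 CPM in Tbx3-deficient against 56.7 to 128 CPM in wild-type buds, and to 81.7 to 150.4 CPM in Hand2-deficient against 52.0 to 110.0 CPM in wild-type buds. Somite and sclerotome markers summed to 72.2 to 87.9 CPM in Tbx3-deficient against 60.3 to 62.0 CPM in wild-type buds, and neural crest markers to 63.4 to 87.9 CPM in Tbx3-deficient against 46.3 to 53.6 CPM in wild-type buds. In the Hand2 series the somite and sclerotome sums were 60.4 to 88.2 CPM in deficient and 49.5 to 80.7 CPM in wild-type buds, and the neural crest sums were 44.3 to 51.8 CPM in deficient and 33.4 to 45.5 CPM in wild-type buds. Macrophage markers were low, at 5.31 to 9.86 CPM in Hand2-deficient against 2.59 to 4.32 CPM in wild-type buds and 4.35 to 5.41 CPM in Tbx3-deficient against 1.04 to 2.92 CPM in wild-type buds. Epithelial sums were 236 to 262 CPM in Hand2-deficient and 259.6 to 291 CPM in wild-type buds, and 268 to 269 CPM in Tbx3-deficient and 242 to 267 CPM in wild-type buds. Muscle progenitor sums were 135 to 138 CPM in Hand2-deficient and 104 to 120.1 CPM in wild-type buds, and 119.5 to 145 CPM in Tbx3-deficient and 124 to 138 CPM in wild-type buds. Among these other lists edgeR called Cldn6, higher in buds labelled Tbx3-deficient (0.727% of all genes), and Gata4, Ptprc and C1qb, higher in Hand2-deficient buds (4.68% of all genes). In the Tbx3 comparison DESeq2 (3.64% of all genes called) added Meox1, Uncx, Podxl, Ngfr and Flt1, with positive fold changes, and Meox2 and Prrx1, with negative ones. In the Hand2 comparison DESeq2 (19.9% of all genes called) added Met, Pax3, Csf1r, Pecam1 and Tie1, with positive fold changes, and Epcam and Meox2, with negative ones. Red cell sums overlapped in both series. No marker in these lists was at 0 in a whole group, and the part of cell composition in the collagen values was not tested.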

How the data were processed

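Per the labels' protocols, RNA of flash-frozen bud pairs (RNA integrity number of at least 8) was made into libraries with a SMARTer kit and read as single ends of 85 bp on a NextSeq 500. Per the submitters' processing notes, the tools were STAR 2.5.2, RSEM 1.3.0 and FastQC 0.11.4, with mm10 as the build. The strand setting is not stated. The deposited files hold expected counts per Ensembl gene, not normalised, which were rounded to whole counts. Symbols and exon lengths came from GENCODE M21 (53274 of 53465 genes matched). Each deficient group was fitted with its own wild types in edgeR 4.0.16 (R 4.3.3; TMM, filterByExpr with a minimum count of 10 and total of 15, quasi-likelihood F test, Benjamini-Hochberg over all genes tested), and the difference of effects in all 12 libraries. An SE is the log2 fold change over the square root of F. The whole fit was checked on simulated counts. Counting error does not cover duplicate reads, which were not told apart. Alternatives used limma 3.58.1 and DESeq2 1.42.0, other filters and scalings, embryo sex, and 1 library left out.

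The collagen genes and the partner and marker lists were chosen with earlier results of these data known. Values per library are given for members called in any comparison, the 8 with the highest level per length, and those with a log2 fold change of at least 1 at 1 CPM or more in the higher group. Values of a few others, named to place these, and the promoter windows of called members were chosen after values were seen. Of each partner list all called genes and up to 4 others by level are named, and a gene named beyond this was likewise chosen after its values were seen. Promoter windows are from RefSeq, GRCm38.p6. Protein sequences were not used here.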

Additional observations from a re-analysis of the deposited data

Results flagged for a closer look

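For 4 of the genes named, the Hand2 effect and the Tbx3 effect differed in edgeR's interaction test over 12 libraries, adjusted over all genes. Col6a3 had 0.37 in the Hand2 and -1.47 in the Tbx3 comparison, a difference of 1.84 on the log2 scale (SE 0.337, adjusted p = 0.0238), with all 3 Tbx3-deficient libraries below their wild types and the Hand2 groups overlapping. Loxl2 had -0.10 and 1.02 in the same comparisons, a difference of -1.11 (SE 0.202, adjusted p = 0.0228). P4ha1 had -0.07 and 0.82, a difference of -0.89 (SE 0.182, adjusted p = 0.0371). Loxl3 had 0.72 and -0.13, a difference of 0.85 (SE 0.186, adjusted p = 0.0463). With 1 of 12 libraries left out in turn, Loxl2 lost the call without Tbx3-deficient replicate 2 or 3, Tbx3 wild-type replicate 3, Hand2-deficient replicate 1 or Hand2 wild-type replicate 1 (adjusted p from 0.00442 to 0.0625). P4ha1 was called only without Tbx3-deficient replicate 1 or Hand2-deficient replicate 3 (adjusted p from 0.0105 to 0.0939), and Loxl3 only without Tbx3-deficient replicate 1 or Hand2 wild-type replicate 2 (adjusted p from 0.0255 to 0.119). For the same difference of effects, 10 of 13 hypoxia and glycolysis genes were called lower (0.893% of all genes). The part of that in the P4ha1 and Loxl2 values was not tested.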

How the results depend on the processing

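In the alternatives run, 0 called values changed direction. Collagen calls in the Hand2 comparison (5) were 12 in DESeq2, 1 with embryo sex in the fit (Col4a5), and 0 to 6 with 1 library left out (0 without deficient replicate 1 or 3 or wild-type replicate 3); other scalings and filters, voom, a fit of all 12 libraries and thinning gave 5 to 7. Collagen calls in the Tbx3 comparison (1) were 6 in DESeq2, 0 in voom, 5 without a low-count filter, 0 with embryo sex, 2 in the fit of 12 libraries, and 0 to 1 with 1 library left out, where without deficient replicate 3 the call was Col9a1. Collagen calls for the difference of effects (1) were 3 in DESeq2, 2 without a filter, and 0 to 2 with 1 library left out. Over all genes, the 153 calls of the Tbx3 comparison were 551 in DESeq2, 99 in voom, 508 without a filter, 22 with embryo sex, 422 in the fit of 12 libraries, and 23 to 220 with 1 library left out. The 1836 calls of the Hand2 comparison were 3483 in DESeq2, 527 with embryo sex, 1163 when thinned, and 218 to 2224 with 1 library left out. The 292 calls for the difference were 859 in DESeq2 and 122 to 335 with 1 library left out.

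With the replicate number as a block, calls over all genes were 87, 161 and 69 in the Tbx3, Hand2 and difference fits, and collagen calls were 1, 0 and 0. Whether replicate numbers pair the samples is not stated. Deviations from group means correlated, for libraries with the same number, at 0.07, 0.01 and -0.01 in the Tbx3 and -0.13, 0.03 and 0.03 in the Hand2 series. For unlike numbers they ran from -0.11 to 0.10 in the Tbx3 and from -0.15 to 0.13 in the Hand2 series. Deviations from the mean of so few libraries constrain one another, so these values cannot decide whether samples were paired. Class sums under plain totals or DESeq2 size factors moved by less than the spread of replicates. The cause of these changes was not tested. Col28a1, at under 1 CPM in every library, was not called at the depth of the Tbx3 series.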
